A study of Mus musculus with 4 samples.

Results

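Angiopoietins signal to the Tie receptors of the vessel lining, and platelet-derived growth factors (PDGFs) signal to the cells that wrap vessels and to fibroblasts. In the textbook account, Angpt1 from cells around the vessel activates Tek (also called Tie2) and keeps the endothelium quiet, Angpt2 can weaken that signal, and Tie1, long described as an orphan receptor, acts together with Tek. Pdgfb made by endothelial cells recruits Pdgfrb-bearing pericytes and smooth muscle cells, Pdgfa and Pdgfc act mainly on Pdgfra, and Pdgfd acts mainly on Pdgfrb. The 10 genes described here, Angpt1, Angpt2, Tek, Tie1, Pdgfa, Pdgfb, Pdgfc, Pdgfd, Pdgfra and Pdgfrb, were taken by name from the 27998 genes of the count matrices, and all 10 had counts in every library.

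Single nuclei were sequenced from the right ventricle (RV) of C57/BL6J wild-type mice at P21. The mice had either sham surgery or a fistula between the abdominal aorta and the inferior vena cava (ACF) at P7, which loads the RV with extra volume (right ventricular volume overload, RVVO). There were 2 sham and 2 RVVO libraries, and throughout, 4 values in a row are given in the order sham 1, sham 2, RVVO 1 and RVVO 2. How many mice went into each library is stated neither in the labels nor in the methods, so p-values measure only the spread between these libraries, which may be technical. Nuclei were assigned to cardiomyocytes (CMs), endothelial cells, pericytes, smooth muscle cells (SMCs), fibroblasts and other classes from raw marker UMIs (unique molecular identifiers, each standing for 1 captured RNA molecule), and none of the 10 genes was among the markers.

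The libraries held 51010039 to 64739206 UMIs, and 8247 to 14564 nuclei per library passed the filters. The median kept nucleus held 2434, 2265, 4823 and 3442 UMIs, and the median CM nucleus 3160, 4002, 8017 and 4725. Nuclei of both RVVO libraries were thus deeper than those of both sham libraries, so depth and surgery went together. The CMs numbered 2895 to 4502 nuclei per library, endothelial cells 1931 to 4178, fibroblasts 807 to 1838, pericytes 251 to 618 and SMCs 22 to 137. CM RNA was found in every class: the 6 CM markers summed to 54151 to 62813 CPM (UMIs of a gene scaled to a fixed total of UMIs in the class and library) in CMs, and to 10877 to 23697 CPM in the endothelial, pericyte, SMC, fibroblast and macrophage classes. The 2 sham libraries carried 1498 and 1510 CPM of Xist and at most 0.10 CPM of the Y-linked gene Uty, whereas the RVVO libraries carried at most 0.83 CPM of Xist and at least 317 CPM of Uty. Every sham against RVVO value given here thus sets female-like against male-like libraries as well, and surgery and sex cannot be told apart. Pairs of libraries shared 28 to 70 cell barcodes.

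Promoter sequences are shown for both Tie receptors, for the endothelial ligand Pdgfd and for the fibroblast receptor Pdgfra, because these genes marked out classes of nuclei most sharply among the members with a promoter entry. Each run covers 250 bases before and 50 bases after the RefSeq start in GRCm38.p6, written 5′ to 3′ on the gene's strand, with the core of the ETS transcription factor motif, GGAA or its reverse complement TTCC, in capitals. Tek lies on the plus strand at chr4:94739039-94739338, Tie1 on the minus strand at chr4:118489800-118490099, Pdgfd on the plus strand at chr9:6168236-6168535 and Pdgfra on the plus strand at chr5:75152001-75152300.
Tek: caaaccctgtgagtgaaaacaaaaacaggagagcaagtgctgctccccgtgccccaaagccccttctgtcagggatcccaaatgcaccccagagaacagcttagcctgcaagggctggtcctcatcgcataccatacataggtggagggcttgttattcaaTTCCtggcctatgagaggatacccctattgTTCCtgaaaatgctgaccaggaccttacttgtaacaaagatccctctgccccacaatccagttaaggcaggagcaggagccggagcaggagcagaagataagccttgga
Tie1: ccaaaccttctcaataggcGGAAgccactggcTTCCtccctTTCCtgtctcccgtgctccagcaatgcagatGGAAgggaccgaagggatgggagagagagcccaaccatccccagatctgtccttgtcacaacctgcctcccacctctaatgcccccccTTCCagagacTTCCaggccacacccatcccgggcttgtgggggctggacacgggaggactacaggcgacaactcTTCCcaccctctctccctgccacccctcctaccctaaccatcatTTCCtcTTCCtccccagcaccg
Pdgfd: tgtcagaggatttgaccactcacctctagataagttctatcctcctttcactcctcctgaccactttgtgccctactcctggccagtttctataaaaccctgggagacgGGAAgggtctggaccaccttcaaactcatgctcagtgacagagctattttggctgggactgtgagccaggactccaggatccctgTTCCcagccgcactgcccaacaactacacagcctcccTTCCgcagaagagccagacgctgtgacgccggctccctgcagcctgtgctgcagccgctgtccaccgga
Pdgfra: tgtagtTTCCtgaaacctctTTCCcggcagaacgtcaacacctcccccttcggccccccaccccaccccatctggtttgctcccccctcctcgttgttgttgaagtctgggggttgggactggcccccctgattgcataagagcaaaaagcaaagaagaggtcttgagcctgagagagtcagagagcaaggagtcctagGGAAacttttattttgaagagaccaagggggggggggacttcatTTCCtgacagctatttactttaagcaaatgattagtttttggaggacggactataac

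Matches were counted on both strands. The Tie1 promoter held 9, and 1.59% of all 32851 promoters held at least as many. Tek, the receptor of the same family, held 2, a number met or passed by 84.6% of promoters. Pdgfd held 3 and Pdgfra 4, numbers met by 66.3% and 46.3% of promoters. The median promoter held 3 matches and 96.0% held at least 1, so the letters alone are common. Pdgfc, on chromosome 3, held 7 matches, a number met by 8.02% of promoters, and each of the 2 Pdgfa promoters held 4.

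Angpt1, the main Tek agonist, came from both CMs and fibroblasts. Its level was 474, 239.6, 191 and 202 CPM in CMs, and 238, 204, 199.8 and 184 CPM in fibroblasts. Thus CMs exceeded fibroblasts in 3 of 4 libraries, and the 2 ranges overlapped. SMCs held 98.5 ± 16 CPM (SD, n = 4 libraries), endothelial cells 67.8 ± 14 CPM and pericytes 41.4 ± 16 CPM. Set against the CM markers in the same nuclei, Angpt1 gave 3.05 to 8.11 UMIs per 1000 CM-marker UMIs in CMs, 3.81 to 4.90 in endothelial cells and 1.998 to 3.34 in pericytes, but 14.4 to 18.8 in fibroblasts. Within libraries, endothelial cells lay below CMs in sham 1 and sham 2. They lay above CMs in RVVO 1 (3.81 against 3.05) and RVVO 2 (4.90 against 3.73). SMCs gave 4.14, 4.84, 3.85 and 6.96, above CMs in all libraries but sham 1. The ratios of fibroblasts lay above every CM ratio. How much of the Angpt1 in the other classes was CM RNA was not tested. Because CMs were numerous and rich in RNA, they carried 59.5% ± 5.7 (SD, n = 4) of all Angpt1 UMIs and fibroblasts 8.57% ± 3.1. In bulk tissue, fewer cells of a type and less RNA per cell could not be told apart, and these shares of UMIs mix both in the same way.

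Among the 5 classes Angpt2, the partial antagonist, had its highest level in SMCs, at 47.1, 52.9, 164 and 73.6 CPM. These values rested on 12, 19, 13 and 14 UMIs, and the library with 164 CPM held only 22 SMC nuclei. Endothelial cells had 24.9, 30.8, 23.8 and 28.0 CPM, and pericytes 25.7, 25.6, 18.9 and 34.98 CPM. SMCs were above both in all 4 libraries, while endothelial cells and pericytes overlapped. CMs were lowest at 7.73 to 8.94 CPM. The Mcph1 gene lies over Angpt2 on the opposite strand and was itself at 29.1 to 53.4 CPM (means of the 5 classes). Because no source used here states whether counting was stranded, reads of this pair cannot be told apart. Mcph1 stood at 15.7, 41.8, 37.9 and 21.0 CPM in SMCs, and its part in the Angpt2 values was not tested.

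Tek was highest in endothelial cells, at 469, 608, 483 and 548 CPM. Fibroblasts came next at 283, 223, 219.8 and 199 CPM, above every SMC, pericyte and CM value, of which the highest was 74.6 CPM. Tie1 was at 249.9, 293, 228 and 208 CPM in endothelial cells and at no more than 54.9 CPM in any of the other 4 classes. The 2 receptors therefore parted in fibroblasts. Endothelial cells had 1.88, 2.08, 2.12 and 2.63 Tek UMIs for each Tie1 UMI, and CMs had 2.20 to 2.73. Fibroblasts had 11.4, 15.9, 18.4 and 13.3 Tek UMIs for each Tie1 UMI, above every endothelial value. Nuclei assigned as epicardial, the sheet over the heart's surface, lay between, with 6.27 to 7.93.

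The Tek signal of fibroblasts did not follow the endothelial markers. The 7 endothelial markers, which include Pecam1, Cdh5 and Kdr, summed to 282 to 407 CPM in fibroblasts and to 5845 to 6953 CPM in endothelial cells. For each 1000 UMIs of those markers, fibroblasts held 572 to 803 Tek UMIs, whereas endothelial cells held 80.3 to 92.3 and CMs 113 to 135. For Tie1 the same ratios were 43.0 to 61.1 in fibroblasts, 35.04 to 42.8 in endothelial cells and 49.5 to 58.6 in CMs. When only fibroblast nuclei with 0 UMIs of the endothelial, pericyte, SMC and macrophage markers were kept, 106, 455, 125 and 357 nuclei were left. Markers of CMs, epicardial cells and the remaining classes were not counted. In the fibroblast nuclei left, Tek stood at 299, 227, 258 and 218 CPM, and Tie1 at 31.9, 13.2, 13.6 and 13.1 CPM. Nuclei of at least 1000 UMIs were thinned to 1000 UMIs, and shallower nuclei were left out of the thinned shares. After thinning, 39.2% ± 3.4 (SD, n = 4) of endothelial, 18.3% ± 2.1 of fibroblast and 2.48% ± 0.92 of CM nuclei held a Tek UMI. Without thinning, over all nuclei of each class, the shares were 67.0%, 39.4% and 10.2%. Left out were 92, 436, 12 and 0 endothelial, 21, 141, 4 and 0 fibroblast and 794, 755, 12 and 0 CM nuclei.

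**Figure D1:**
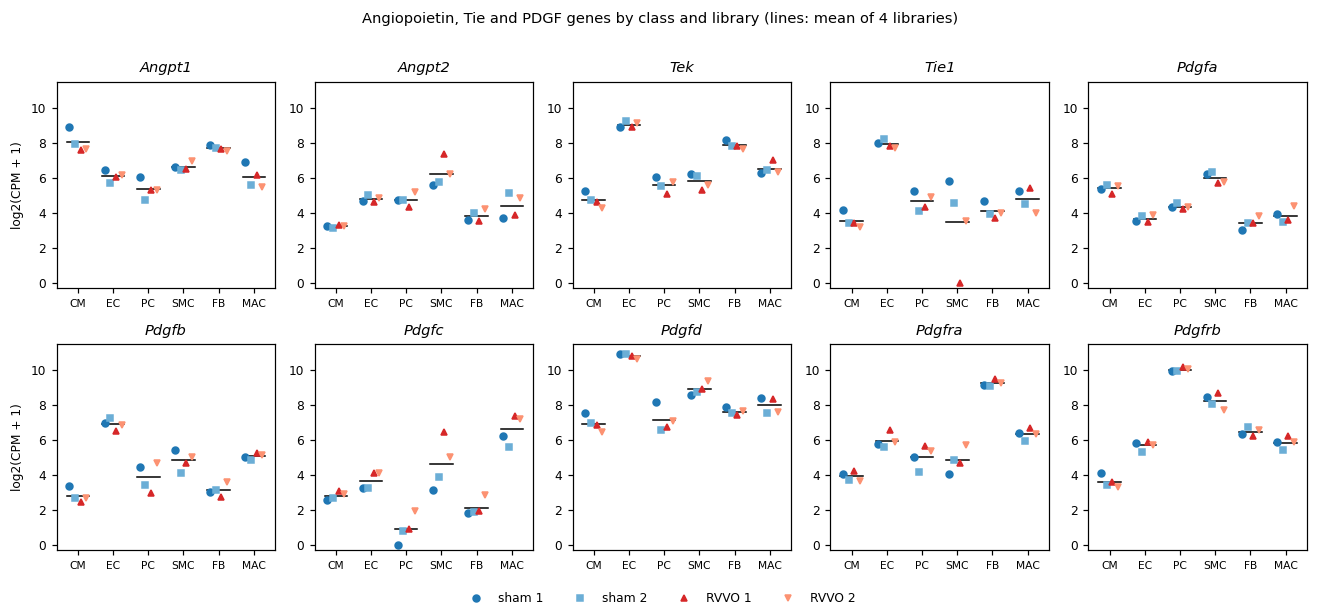
Levels of the 10 genes as log2(CPM + 1) in the 5 classes and in macrophages, with 1 point per library and a line at the mean of the 4 libraries. Pdgfrb stands highest in pericytes (mean 1052 CPM), Pdgfra in fibroblasts (616 CPM) and Pdgfd, Pdgfb, Tek and Tie1 in endothelial cells, while the Angpt1 points of CMs and fibroblasts overlap.

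Among the PDGF ligands, Pdgfd and Pdgfb were endothelial. Pdgfd stood at 1942, 1941, 1799 and 1602 CPM in endothelial cells. Among the classes compared, SMCs came next at 385, 437, 493 and 663 CPM. Epicardial nuclei, outside those classes, had 698, 525, 601 and 585 CPM of Pdgfd on 211, 412, 334 and 531 UMIs. They were above SMCs in every library but RVVO 2. The fibroblast, pericyte and CM values of Pdgfd ran from 86.2 to 286 CPM and overlapped among themselves. Pdgfb, which anchors pericytes to the vessel, was at 126, 151, 91.0 and 116 CPM in endothelial cells and at no more than 43.2 CPM in the other 4 classes. Endothelial cells carried 57.8% ± 9.5 of all Pdgfb UMIs and 56.3% ± 8.0 of all Pdgfd UMIs (SD, n = 4).

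Pdgfa and Pdgfc, the ligands of Pdgfra, were placed differently. Pdgfa was at 74.6, 80.8, 50.5 and 52.6 CPM in SMCs, on 19, 29, 4 and 10 UMIs, and at 39.9, 46.5, 33.1 and 44.9 CPM in CMs. The SMC value was the higher in each library, yet CMs carried 60.9% ± 2.6 of all Pdgfa UMIs. Glia, outside the 5 classes, were above SMCs in each library, at 80.8, 175, 143 and 98.1 CPM on 7, 19, 8 and 5 UMIs. Fibroblasts, which bear the receptor, had the lowest Pdgfa level at 7.16 to 12.97 CPM. Pdgfc was scarce in the 5 classes: SMCs had 7.85, 13.9, 88.4 and 31.6 CPM on 2, 5, 7 and 6 UMIs, endothelial cells 8.64, 8.52, 16.7 and 16.2 CPM, and CMs 5.09 to 7.39 CPM. Pericytes held 0, 1, 1 and 2 Pdgfc UMIs. Macrophages had more Pdgfc than any of the 5 classes in each library, at 74.9, 48.8, 169 and 148 CPM on 70, 64, 259 and 330 UMIs. Macrophages, CMs and endothelial cells carried 23.2% ± 7.2, 22.3% ± 5.4 and 19.9% ± 5.9 of all Pdgfc UMIs, so no class held most of them.

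The PDGF receptors each stood highest in 1 class. Pdgfra was at 578, 549, 709.6 and 627 CPM in fibroblasts, and endothelial cells, next of the 5 classes, had 47.6 to 96.1 CPM. Macrophages, outside the 5 classes, were above endothelial cells in each library, at 82.4, 60.9, 101 and 81.8 CPM. Pdgfrb was at 994, 988, 1159 and 1065 CPM in pericytes, followed by SMCs at 353, 265, 417 and 210.4 CPM, fibroblasts at 73.9 to 106 CPM, endothelial cells at 39.6 to 58.9 CPM and CMs at 8.92 to 16.6 CPM. None of these 5 ranges overlapped with the next. At a depth of 1000 UMIs, 63.5% ± 3.0 (SD, n = 4) of pericyte nuclei and 1.05% ± 0.40 of CM nuclei held a Pdgfrb UMI, and 41.8% ± 3.3 of fibroblast nuclei and 1.34% ± 0.23 of CM nuclei held a Pdgfra UMI. Unthinned, the shares were 87.4% and 4.65% for Pdgfrb and 69.6% and 5.73% for Pdgfra. Pericytes themselves carried only 26.4% ± 6.1 of the Pdgfrb UMIs, and 32.4% ± 5.0 lay in nuclei set aside because they held markers of more than 1 class.

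**Figure D2:**
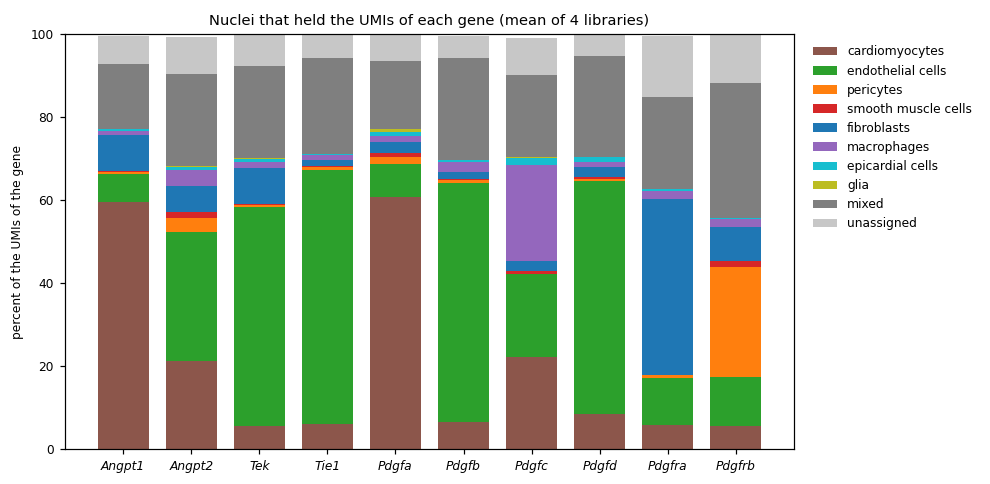
Percent of all UMIs of each of the 10 genes found in each class, as the mean of 4 libraries, with macrophages, epicardial cells, glia, mixed and unassigned nuclei also shown. CMs hold the largest part of Angpt1 (59.5%) and Pdgfa (60.9%), endothelial cells that of Tie1 (61.4%), Pdgfb (57.8%), Pdgfd (56.3%) and Tek (52.8%).

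The placement of the genes was then tested by quasi-likelihood fits in edgeR to UMIs summed per class and library, each class against the mean of the other 4, with Benjamini-Hochberg adjustment over 14011 genes and a threshold of 0.05. So many genes differ between cell classes that a call alone says little: 71.9% of all genes were called for CMs, 49.2% for endothelial cells, 30.4% for pericytes, 17.9% for SMCs and 46.8% for fibroblasts. The sizes are therefore given as log2 fold changes. The SE beside an edgeR value is its absolute log2 fold change divided by the square root of the F statistic of its test.

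In CMs, Angpt1 was higher by 2.15 (SE 0.11, adjusted p = 3.10e-15) and Pdgfa by 1.58 (SE 0.083), and 7 members were lower, Pdgfrb the most at -3.56. Pdgfc was called higher in CMs at 0.65 (SE 0.23, adjusted p = 0.0155), but at 0.12 with adjusted p = 0.695 without TMM scaling, and the call was also lost with mixed nuclei kept (0.34) and without sham 1 (0.46) or sham 2 (0.51). In endothelial cells 5 members were higher: Tie1 by 3.65 (SE 0.12), Pdgfb by 3.22 (SE 0.13), Pdgfd by 3.03 (SE 0.13), Tek by 2.93 (SE 0.10) and Pdgfc by 1.23 (SE 0.22). Angpt1, Pdgfrb and Pdgfa were lower there, whereas Angpt2, at 0.22 (adjusted p = 0.139), and Pdgfra, at 0.05 (adjusted p = 0.781), did not pass the test. Angpt2 was called without TMM scaling (0.35, adjusted p = 0.0253) and without RVVO 1 (0.30, adjusted p = 0.0340). In pericytes Pdgfrb was higher by 3.96 (SE 0.099, adjusted p = 4.06e-20) and 6 members were lower, among them Pdgfc by -3.40 (SE 0.54) and Angpt1 by -1.88 (SE 0.17). The lower call of Pdgfa in pericytes, -0.40 with adjusted p = 0.0417, was lost when any 1 library was left out (-0.42 to -0.36). It was also lost without TMM scaling (-0.29), without the filter on low counts (-0.42) and with 2 times the minimum marker UMIs (-0.42).

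In SMCs 5 members were higher and 2 lower. Pdgfc was higher by 2.54 (SE 0.49), Angpt2 by 1.89 (SE 0.27), Pdgfa by 1.85 (SE 0.20), Pdgfrb by 1.68 (SE 0.17) and Pdgfd by 0.66 (SE 0.19, adjusted p = 0.0165). The Pdgfd call was lost without sham 2 (0.63), RVVO 1 (0.63) or RVVO 2 (0.39) and with mixed nuclei kept (0.44), and the lower call of Pdgfra, -1.14, was lost without sham 1 (-0.89, adjusted p = 0.0914). In fibroblasts Pdgfra was higher by 4.12 (SE 0.097, adjusted p = 9.40e-21), Tek by 1.35 (SE 0.11, adjusted p = 1.55e-10) and Angpt1 by 1.002 (SE 0.12, adjusted p = 1.08e-07), and the other 7 were lower. The fibroblast call of Pdgfc, -1.02, was lost without sham 2 (-1.03), RVVO 1 (-0.74) or RVVO 2 (-1.21), and without TMM scaling (-0.82). Without TMM scaling the median of all genes moved to -0.53 in CMs, 0.22 in fibroblasts and 0.12 in pericytes, and the split of calls into higher and lower went from 5190 and 4877 to 2872 and 7967 in CMs, from 3434 and 3461 to 4302 and 2386 in endothelial cells, from 2193 and 2066 to 3016 and 1539 in pericytes, from 1193 and 1310 to 1315 and 888 in SMCs and from 3574 and 2986 to 5381 and 1921 in fibroblasts.

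Pericytes and SMCs, both of which surround vessels and bear Pdgfrb, differed in their ligands. In the direct contrast, in which 14.0% of all genes were called, Pdgfrb was higher in pericytes by 1.82 (SE 0.18, adjusted p = 1.44e-08). Pdgfc (-4.75, SE 0.73), Pdgfa (-1.80, SE 0.22), Pdgfd (-1.71, SE 0.24), Angpt2 (-1.39, SE 0.29) and Angpt1 (-1.26, SE 0.29) were lower in pericytes. The Pdgfc value rested on only 0, 1, 1 and 2 UMIs in pericytes and 2, 5, 7 and 6 UMIs in SMCs. The Angpt1 call was lost without sham 2, at -1.05 with adjusted p = 0.0521. Tek, Tie1, Pdgfb and Pdgfra did not pass the test in this contrast. The SMC markers summed to 105 to 187 CPM in pericytes and to 5251 to 6201 CPM in SMCs.

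**Figure D3:**
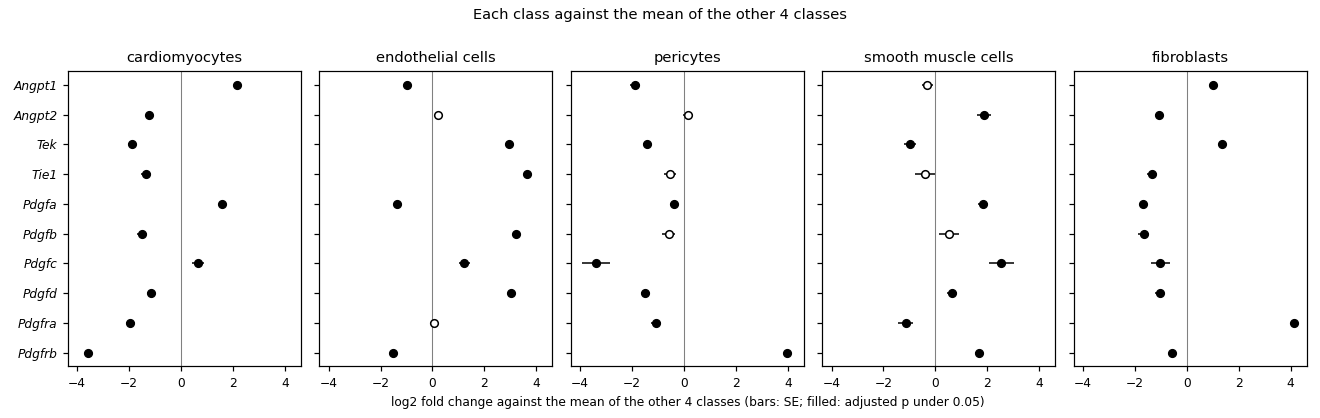
Log2 fold changes of the 10 genes from edgeR, each class against the mean of the other 4, with bars of 1 SE and filled points for adjusted p under 0.05. Pdgfra in fibroblasts (4.12), Pdgfrb in pericytes (3.96) and Tie1 in endothelial cells (3.65) are the largest positive values.

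The endothelium was not uniform for these genes. Endothelial nuclei were split by further markers into capillary nuclei (3535, 3619, 1584 and 1898), endocardial nuclei, which line the chamber (111, 166, 174 and 230), and lymphatic nuclei (28, 39, 39 and 20). Arterial nuclei were too few to describe, with 1 to 15 per library. Pdgfc stood at 106, 114, 109.9 and 55.6 CPM in endocardial nuclei and at 3.66, 1.64, 7.29 and 10.7 CPM in capillary nuclei, and no Pdgfc UMI was found in lymphatic nuclei. The other endothelial ligands had the opposite pattern. Pdgfb was at 133, 166, 104 and 135 CPM in capillary nuclei and at 10.9, 27.0, 16.6 and 24.4 CPM in endocardial nuclei, and Pdgfd at 2062, 2142, 2038 and 1832 CPM against 239.8, 326, 442 and 305 CPM. For all 3 ligands the endocardial and capillary values did not overlap.

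This difference was tested on sums per subset and library with the library as a covariate, a test in which 27.1% of 12619 genes were called. Endocardial nuclei were higher in Pdgfc by 4.17 (SE 0.34, adjusted p = 2.35e-09), lower in Pdgfb by -2.65 (SE 0.18, adjusted p = 7.90e-11) and lower in Pdgfd by -2.57 (SE 0.13, adjusted p = 1.18e-12). Angpt1 was higher by 0.90 (SE 0.19, adjusted p = 0.00112), with 149.9, 135, 106 and 59.6 CPM in endocardial against 81.3, 39.1, 58.5 and 69.3 CPM in capillary nuclei. RVVO 2 was the library in which the endocardial value was not the higher. Tek was higher by 0.42 (SE 0.12, adjusted p = 0.00971), a call lost without RVVO 1 (0.29, adjusted p = 0.132) or RVVO 2 (0.34, adjusted p = 0.0984). Pdgfra was at -0.89 (adjusted p = 0.0560), and at -1.93 (adjusted p = 1.91e-07) without sham 2. Tie1, Angpt2, Pdgfa and Pdgfrb did not pass the test. In lymphatic nuclei Angpt2 was at 143, 82.0, 81.4 and 30.9 CPM on 13, 9, 16 and 2 UMIs, against 22.0 to 30.9 CPM in capillary nuclei. The SMC values were 47.1, 52.9, 164 and 73.6 CPM, below the lymphatic values in both sham libraries and above them in both RVVO libraries.

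**Figure D4:**
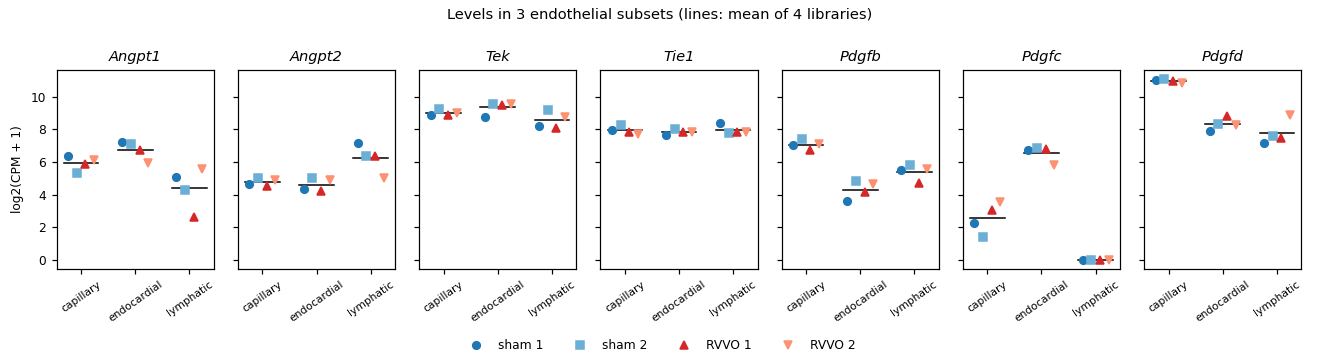
Levels as log2(CPM + 1) of 7 of the 10 genes in capillary, endocardial and lymphatic endothelial nuclei, with 1 point per library and a line at the mean of the 4 libraries. Pdgfc lies between 55.6 and 114 CPM in endocardial nuclei and below 10.8 CPM in capillary nuclei, whereas Pdgfb and Pdgfd are lower in endocardial nuclei in every library.

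Genes that act beside these ligands and receptors were followed in 2 lists. Of 22 pathway genes (Angpt4, receptor partners, PDGF-processing proteases and signal carriers) 20 were tested. Of these, 9 were higher and 6 lower in endothelial cells (median log2 fold change 0.24, against -0.04 over all genes), 6 and 12 in CMs (-0.40 against 0.00), 7 and 4 in pericytes (0.01 against 0.01), 2 and 7 in SMCs (-0.32 against -0.16) and 6 and 6 in fibroblasts (0.00 against 0.02). Ptprb, the phosphatase that turns Tek signalling down, was higher in endothelial cells by 3.34 (SE 0.12), at 804, 874, 900.5 and 663 CPM. Svep1, an extracellular matrix protein since described as a Tie1 ligand, was higher in fibroblasts by 4.24 (SE 0.15), at 230.1, 242, 244 and 286 CPM. Lrp1, a co-receptor of Pdgfrb, was higher in fibroblasts by 2.53 (SE 0.080) and in pericytes by 1.30 (SE 0.096). Plat, the protease that activates Pdgfc, was higher in pericytes by 1.23 (SE 0.20) and in fibroblasts by 0.72 (SE 0.16). Angpt4, the remaining angiopoietin, had 2, 7, 4 and 1 UMIs in SMCs and at most 1.78 CPM in any library of the other 4 classes. It passed the filter on low counts only through SMCs. Its higher call in SMCs, counted above, therefore carries no weight.

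Of 12 vessel wall genes all 12 were tested. There were 7 higher and 3 lower in endothelial cells (median 0.53), 6 and 3 in pericytes (0.41), 6 and 1 in SMCs (0.48), 2 and 9 in CMs (-1.10) and 2 and 10 in fibroblasts (-1.07), beside the medians over all genes given above. Notch3, the receptor of mural cells, was higher in SMCs by 3.997 (SE 0.095) and in pericytes by 2.98 (SE 0.081). The artery and vein partners Efnb2 and Ephb4 were higher in endothelial cells by 2.95 (SE 0.11) and 2.62 (SE 0.080), and S1pr1, which steadies endothelial junctions, by 2.79 (SE 0.093). Cdh2, the cadherin that also joins CMs at their ends, was higher in CMs by 3.31 (SE 0.085). Between pericytes and SMCs, 5 pathway genes were higher and 3 lower in pericytes (median 0.34, against 0.11 over all genes), and 3 vessel wall genes were higher and 4 lower (-0.14).

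Over the 20 class-by-library values of log2(CPM + 1), the genes whose pattern was most like that of each member among 13707 genes were Sema6a (Pearson r = 0.98) and Hspg2 (0.97) for Tek, and Slc26a10 (0.99) and Car4 (0.98) for Tie1. The closest were Fhit (0.94) and Aff2 (0.90) for Angpt1, and Itgb1 and Tln1 (both 0.95) for Angpt2. For the ligands they were Cap2 and Parm1 (both 0.96) for Pdgfa, Ushbp1 (0.97) and Clec1a (0.95) for Pdgfb, Itga3 (0.91) and Synpo (0.87) for Pdgfc, and Plcb1 (0.97) and Rasgrf2 (0.96) for Pdgfd. For the receptors they were Abi3bp (0.99) and Gpm6b (0.98) for Pdgfra, and A830082K12Rik (0.99) and Dtx3 (0.98) for Pdgfrb. These values share libraries and classes and are given as a description only.

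Sham and RVVO libraries were compared within each class. No member was called in any class by edgeR at an adjusted p under 0.05, where the share of all genes called was 0.0463% in CMs, 0.207% in endothelial cells, 0.0794% in pericytes, 0.161% in SMCs, 0.0846% in fibroblasts and 0.0732% in macrophages. The members tested numbered 10 in CMs, endothelial cells, fibroblasts and macrophages, 9 in pericytes (not Pdgfc) and 6 in SMCs (not Tie1, Pdgfb, Pdgfc and Pdgfra). At an unadjusted p under 0.05 there were 3 members in CMs, 3 in endothelial cells, 1 in pericytes, 1 in SMCs, 0 in fibroblasts and 1 in macrophages. Among all genes tested, 888 of 15127 in CMs and 1743 of 14488 in endothelial cells had such a p. So did 459 of 10071 in pericytes, 184 of 4341 in SMCs and 886 of 10926 in macrophages. The median log2 fold change of the members was -0.50 in CMs, -0.13 in endothelial cells, -0.19 in pericytes and 0.09 in SMCs. It was -0.05 in fibroblasts and 0.29 in macrophages. Medians over all genes were at most 0.01 in size. In CMs the 7 endothelial markers summed to 290 and 191 CPM in sham and to 183 and 159 CPM in RVVO. Their part in the CM median of the members was not tested. With DESeq2, 1 member, Pdgfc in macrophages, was called, where 26 of 10926 genes were called. With so few libraries and so few calls over all genes, a value that misses the threshold does not show that the groups were alike.

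Pdgfc in macrophages had the lowest p of the members. The 2 RVVO values, 169 and 148 CPM, were above the sham values of 74.9 and 48.8 CPM, for a log2 fold change of 1.36 (SE 0.25, adjusted p = 0.280 by edgeR). The adjusted p was 0.0337 with DESeq2 and 1.40e-05 in edgeR without the filter on low counts. Without that filter 291 of 18381 genes were called in macrophages. The fibroblast markers summed to 738 and 648 CPM in sham macrophages and to 1016 and 1079 CPM in RVVO macrophages, and their part in the result was not tested. Fibroblasts themselves held at most 6.22 CPM of Pdgfc, and endocardial endothelial nuclei, described above, held 55.6 to 114 CPM. The endothelial markers in macrophages summed to 722 and 633 CPM in sham and to 960 and 583 CPM in RVVO. The part of RNA from these cells in the macrophage value was not tested either.

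Pdgfc in endothelial cells was higher in both RVVO libraries, at 16.7 and 16.2 CPM against 8.64 and 8.52 CPM (0.85, SE 0.17, edgeR adjusted p = 0.160). Other measures also differed between sham and RVVO endothelial cells, and their part in the Pdgfc difference was not tested. Endocardial nuclei, rich in Pdgfc, made up 2.87% and 3.97% of endothelial nuclei in sham and 9.01% and 9.66% in RVVO. The macrophage markers in endothelial cells summed to 145 and 125 CPM in sham and to 247 and 272 CPM in RVVO. Within capillary nuclei alone, where 0.262% of genes were called, the difference was 1.62 (SE 0.41, adjusted p = 0.234). Within endocardial nuclei, where 0.188% were called, it was -0.42 (SE 0.31, adjusted p = 0.9999). Endocardial nuclei held 36.1%, 69.4%, 53.4% and 28.9% of the endothelial Pdgfc UMIs.

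Other members with large differences did not pass the test. Angpt1 in CMs was lower in RVVO by -0.88 (SE 0.31, adjusted p = 0.841), and the 2 sham libraries alone were 474 and 239.6 CPM. Without sham 1 the value was -0.30, and without sham 2 it was -1.29 (adjusted p = 0.0616). Pdgfb and Tie1 in endothelial cells were at -0.51 (SE 0.15, adjusted p = 0.279) and -0.40 (SE 0.13, adjusted p = 0.318). Both RVVO values lay below both sham values for each gene, and how many of all genes did so was not counted. Within capillary nuclei alone Pdgfb was at -0.40 and Tie1 at -0.42, and within endocardial nuclei at 0.016 and -0.056, none past the test. The part of the endocardial share in the endothelial values was not tested. Angpt2 in SMCs was at 1.04 (SE 0.46, adjusted p = 0.999). Pdgfd in pericytes was at -0.67 (SE 0.40, adjusted p = 0.9997) with all libraries, 0.33 without sham 1 and -1.27 (adjusted p = 4.31e-05) without sham 2. Sham 1 pericytes held 286 CPM of Pdgfd, against 94.7, 105 and 136 CPM, and the summed endothelial markers in pericytes were 697 CPM in sham 1, against 422, 345 and 426 CPM.

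Among the receptors, each in the class where it was highest, Pdgfrb in pericytes differed by 0.17 (SE 0.19), Pdgfra in fibroblasts by 0.22 (SE 0.15) and Tek in endothelial cells by -0.15 (SE 0.15), none past the test. None of the genes of the pathway and vessel wall lists was called between sham and RVVO in any of these 6 classes either. Their median log2 fold changes lay between -0.22 and 0.14, beside medians over all genes of at most 0.01 in size. Over all kept nuclei, where the make-up of the tissue counts too, Pdgfc went from 8.30 and 7.75 CPM in sham to 15.2 and 17.3 CPM in RVVO, and Pdgfd went from 816 and 614 to 566 and 458 CPM. These whole-tissue values had no test.

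**Figure D5:**
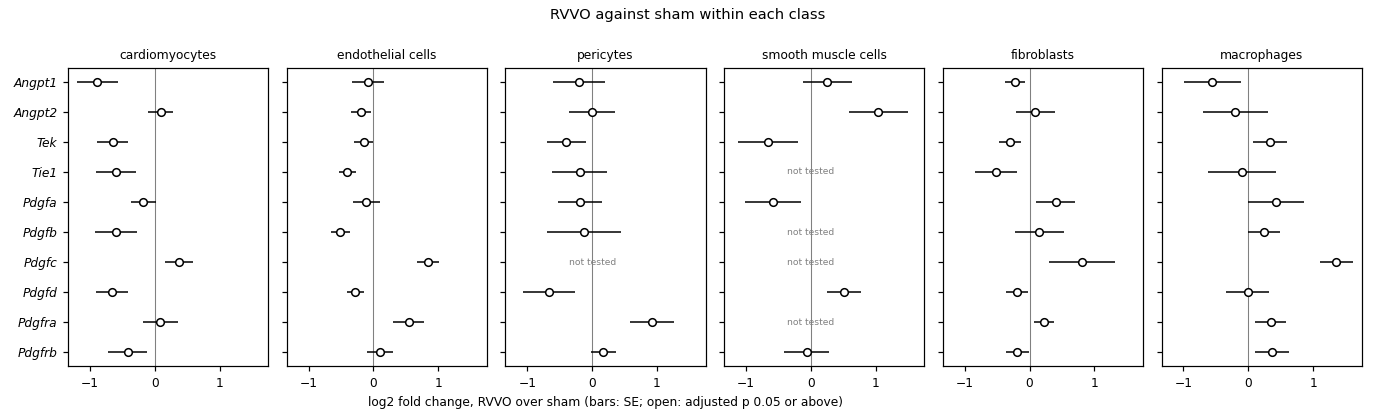
Log2 fold changes of the 10 genes from edgeR, RVVO over sham, in 6 classes, with bars of 1 SE. All points are open because no adjusted p was under 0.05, and Pdgfc in macrophages (1.36) lies farthest from 0.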

How the data were processed

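Per the labels, nuclei were isolated from flash-frozen RVs and sequenced by the 10x droplet method. The deposited files hold raw UMI counts per gene and barcode, 1 matrix per library. Their header names Cell Ranger 5.0.0, whereas the submitters' processing notes list Cell Ranger 3.0.1, STAR, Seurat 3.0.2 and the builds GRCm38 and mm10. Whether intronic or strand-specific reads were counted, and against which annotation, the sources used here do not say.

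Only barcodes that had 200 or more genes, and less than 10% of their UMIs from mitochondrial genes, entered the analysis. A nucleus was assigned to a class when at least 3 UMIs of at least 2 of its markers reached a minimum per 10000 UMIs (350 for CMs, 20 for endothelial cells and macrophages, 25 for pericytes and fibroblasts, 15 for SMCs). Its score, the marker rate over that minimum, also had to be at least 2 times that of the next class. For classes other than CMs this comparison left CMs out. Such a nucleus was set aside for its CM markers only when these reached the CM minimum. A CM nucleus could not qualify for any other class. These minimums were set after the marker distributions were seen. No doublet caller was run, and nuclei with markers of more than 1 class (11.3 to 17.6% per library) were left out. Endothelial subsets needed 2 marker UMIs and 10 per 10000 UMIs.

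Counts were summed per class and library and tested with edgeR 4.0.16 (TMM, filterByExpr, quasi-likelihood test) in R 4.3.3, with Benjamini-Hochberg adjustment over all genes tested. DESeq2 1.42.0, no TMM, no filter, a depth minimum, leaving out each library and a replicate block were alternatives. Others were 2 times the minimum marker UMIs, mixed nuclei kept and no mitochondrial filter. The raised marker minimum held for competing classes too. In sham 1, CM nuclei rose with it from 4106 to 4810. Endothelial nuclei there fell from 3863 to 3555 and mixed nuclei from 2283 to 1414. The macrophage class, the endothelial subsets and nuclei free of the markers of certain other classes were added after the data were seen. The scripts were tested on simulated counts. CPM is relative to the UMIs of the class in that library, with depth as given in the report. All 10 members were named, and for each member the 2 most alike genes. The lists were given as counts of genes past the test, and only some of those genes were named. The members and lists were chosen with earlier results of these data known. Sequences were taken from RefSeq for the 6 members with a promoter entry.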

Additional observations from a re-analysis of the deposited data

How the results depend on the processing

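Between classes, 505 of 540 recomputed member values kept their direction and side of the threshold, 21 lost it, 6 gained it and 8 changed sign. Of the sham and RVVO differences, taken for each member in its highest class of the 5, and for Pdgfc, not tested in SMCs, in endothelial cells and macrophages, 130 of 134 kept both. Differences in other classes are outside this tally, and among them Pdgfd in pericytes was -0.67 with all libraries, 0.33 without sham 1 and -1.27, called, without sham 2. In the tallied comparisons, values that changed sign were not called with all libraries: Tek in endothelial cells, RVVO over sham, ran from -0.31 to 0.022 with 1 library left out (0.022 without sham 2); Tie1 in pericytes was 0.022 with mixed nuclei kept, and against SMCs 0.35, or -0.37 to 0.38 with 1 library left out (0.38 without sham 1); Pdgfb in pericytes was 0.17 with mixed nuclei kept; Pdgfra in endothelial cells ran from -0.046 (without RVVO 1) to 0.15, and in pericytes against SMCs from -0.20 to 0.34 (-0.20 without sham 1, -0.14 without RVVO 1), and was -0.0097 with mixed nuclei kept. Pdgfa in endocardial against capillary nuclei ran from -0.48 to 0.44 (0.11 without RVVO 1, 0.44 without RVVO 2), and Pdgfc, RVVO over sham, was -0.42 in endocardial nuclei. The causes were not tested.

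The numbers of genes called between sham and RVVO were 7 in CMs, 30 in endothelial cells, 8 in pericytes, 7 in SMCs, 11 in fibroblasts and 8 in macrophages. With DESeq2 they were 86 in CMs, 291 in endothelial cells, 13 in pericytes, 42 in fibroblasts and 26 in macrophages, and without the filter on low counts 280 in endothelial cells, 117 in pericytes, 23 in SMCs, 201 in fibroblasts and 291 in macrophages. With mixed nuclei kept they were 19 in endothelial cells and 7 in fibroblasts, and with stricter classes 7 in fibroblasts. Leaving out 1 library at a time gave 7 to 40 in CMs, 12 to 103 in endothelial cells, 11 to 157 in pericytes, 0 to 28 in SMCs, 10 to 60 in fibroblasts and 10 to 13 in macrophages. The replicate numbers pair nothing in the labels, and same-numbered libraries deviated together with r from -0.08 to 0.12. With the number as a replicate block the counts were 114 in endothelial cells, 15 in SMCs and 26 in fibroblasts, and no member was called.

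The class with the highest level stayed for all 10 members with stricter classes, with mixed nuclei kept and with at least 1000 UMIs per nucleus. Nuclei with 0 UMIs of the endothelial, pericyte, SMC, fibroblast and macrophage markers, apart from their own, were also taken alone. In these the highest class moved only for Pdgfc, from SMCs to CMs, with 10, 18, 1 and 1 SMC nuclei left. The SMC values of Angpt2 rested there on 0, 2, 2 and 0 UMIs and those of Pdgfa on 2, 0, 1 and 1. Their unchanged highest class therefore says little. Pericytes and SMCs were not held free of each other's markers. Few SMC nuclei limit every SMC value.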
